A study of Mus musculus with 6 samples.

Results

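The mRNA levels of 9 transcription factors known for driving endothelial- and epithelial-mesenchymal transition were compared between SOD3-overexpressing and mock 1G11 mouse endothelial cells. Both lines (strain label C57BL/6NCrLBR) had been exposed to tumor-conditioned medium for 6 h, so every difference below holds under that exposure. The factors were Snai1, Snai2, Zeb1, Zeb2, Twist1, Twist2, Tcf4, Prrx1 and Foxc2. Their classical repressed target Cdh1, the gene of E-cadherin, was compared with them. Every non-control spot whose description or accession names one of these 10 genes was taken, which gave 13 probes in 22 spots of the 55681 probes and 59305 spots on each array. By the scanner's own test, 8 of the 13 probes were well above background on all 6 arrays, 5 were so on some arrays and 0 on none. The 8 belonged to 8 genes (Snai1, Snai2, Zeb1, Zeb2, Twist2, Tcf4, Prrx1 and Foxc2). Twist1 was well above background on 2 of 3 mock and 3 of 3 SOD3 arrays, and Cdh1 on 0 and 3. The remaining 3 were second probes of Zeb2, Tcf4 and Prrx1, which were dim in at least 1 line. The single Twist2 probe and 1 probe each of Zeb2, Tcf4 and Prrx1 lie in the central 128 of 384 rows and 55 of 164 columns, called the middle of the array here. These 4 are given apart from the others, because copies of the same sequence differed more between the lines in that area than elsewhere.

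In the transition, endothelial cells lose junctional and vascular genes and take on contractile and matrix genes. Snail, Zeb and Twist proteins bind E-box sequences and repress junction genes such as Cdh1, whereas Prrx1 and Foxc2 belong to the homeobox and forkhead families and are active in mesenchyme. Tcf4 is the E protein E2-2, a partner of Twist proteins, and is not the Wnt effector Tcf7l2, which is often called by the same name.

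Prrx1 was the only one of the 10 genes with probes called higher in the SOD3 cells. Its probe outside the middle was 3.76-fold higher (log2 difference 1.91, SE 0.251, n = 3 per line). When the values were adjusted for the place of each spot, that difference was 1.42 and still called. The Prrx1 probe in the middle went from 2.25 to 0.62 with the adjustment and lost its call. Tcf4 was the only gene with a probe called lower, by 1.32 on the log2 scale, and that call was also lost with the adjustment. Snai1 was higher on 2 of 3 SOD3 arrays and did not pass the test. Zeb1, Snai2 and the bright Zeb2 probe differed by at most 0.23 on the log2 scale.

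The arrays hold 1G11-mock and 1G11-SOD3 cells, 3 biological replicates each. 1G11 is a mouse microvascular endothelial cell line (strain label C57BL/6NCrLBR), modified in the 1G11-SOD3 line to overexpress the extracellular superoxide dismutase SOD3. Both lines had spent 6 h with medium conditioned by N202.1A cells, a mouse mammary cancer line, before RNA was extracted, so that no array shows either line without tumor-conditioned medium. The construct's promoter and the number of clones behind each line are not given in the sources used here.

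Between 34.2% and 36.0% of the spots were well above background on the mock arrays and between 38.4% and 43.8% on the SOD3 arrays. The mock arrays occupied 1 row of the slide and the SOD3 arrays the other, so the line and the slide row cannot be told apart. Place on the array mattered as well. Among 128 bright probes printed 10 times with copies in both areas, the median difference between SOD3 and mock was 1.17 higher (log2) for copies in the middle than for copies of the same sequence elsewhere. The middle held 11.6% of all probes and 69.4% of those called higher. A position adjustment, which takes a smooth surface over rows and columns off each array, reduced that excess to 0.26. Sod3 itself, whose probe lies in the middle, was higher by 4.27 (log2) in the SOD3 cells (adjusted p = 0.00791 by limma) and by 2.70 after position adjustment (adjusted p = 0.0128), and it lost the call without SOD3 replicate 3 (adjusted p = 0.0514). The study states that the line was checked by VE-cadherin staining. On the arrays the probe for Cdh5, the VE-cadherin gene, was well above background on 0 of 6 arrays, while that for the VEGF receptor gene Kdr was so on all 6.

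The probes that carry the results are shown here by the first 30 of their 60 bases, as the scanner output gives them, 5′ to 3′. No motif is marked in them. They were chosen because the pair for Prrx1 was designed on different transcript variants, because Snai1, Twist2 and Foxc2 are read by 1 spot each, and because the Cdh1 sequence was printed 10 times.
Prrx1 probe outside the middle: cacgtgggaggttaaattaaaccagaagta
Prrx1 probe in the middle: tcaagctagtacctcacatgagatattcat
Snai1: gtttcacagcagtttaactgtctcagaagg
Twist2: ttattgagatattttaccagctaagtgact
Foxc2: cacaccaaaagactttaaaatttcaatctc
Cdh1: acattctaacgggaaaaaggagacaagacc
The Prrx1 probe outside the middle lies on chr1:165175375-165175434 (minus strand) and was designed on transcript variant 2. The one in the middle lies on chr1:165185408-165185467 and was designed on transcript variant 3, so that 9973 bases separate them in the genome. The Snai1 probe lies on chr2:167368073-167368132, the Twist2 probe on chr1:93744519-93744577, the Foxc2 probe on chr8:123642693-123642752 and the Cdh1 probe on chr8:109193812-109193871, all on the plus strand. Positions were taken from the annotation in the scanner output, which names no genome build and gives no exon or UTR status. The 13 probes had between 35% and 45% G and C bases.

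A probe was called when it differed more than 2-fold with an adjusted p under 0.05 (limma, Benjamini-Hochberg over all 55681 probes). By that rule 2 of the 13 probes were called higher in the SOD3 cells, both of Prrx1, where 1.86% of all probes were called higher, and 1 was called lower, a Tcf4 probe, where 1.05% of all probes were called lower. The 3 mock and 3 SOD3 values did not overlap for 4 probes that were higher in the SOD3 cells, against 10.4% of all probes, and for 2 that were lower, against 10.3%. Of those 4, 3 lie in the middle of the array. After position adjustment 1 probe was called higher, against 1.13% of all probes, and 0 were called lower, against 2.72%. At an unadjusted p under 0.05, limma gave 8 of the 13 before position adjustment, against 14.4% of all probes. That share is over all probes, including those not above background. The 8 included the 4 probes in the middle of the array. They also included the Foxc2 probe and the Tcf4 probe called lower, which lie near its edge (columns 8 and 7). No such count was made after position adjustment. With 3 arrays a line, the number of arrays limits the precision of each value.

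**Figure D1:**
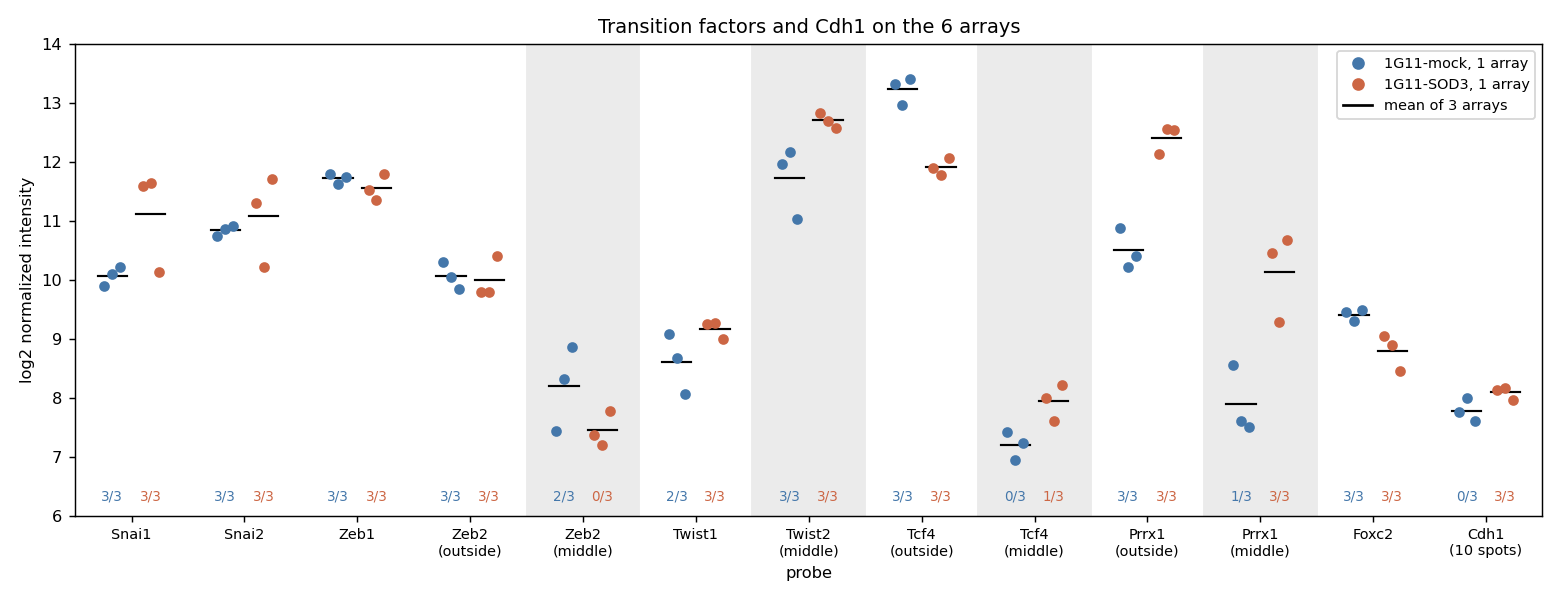
Normalized log2 intensity (vertical axis) of the 13 probes (horizontal axis) on each of the 6 arrays; points are arrays, black lines are means of 3 arrays, and the fractions at the bottom give how many arrays of a line were well above background. Grey bands mark the 4 probes in the middle of the array. The SOD3 points lie above all mock points for both Prrx1 probes, for Twist2 and for the dim Tcf4 probe, and below them for the bright Tcf4 probe and for Foxc2.

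Prrx1 encodes a paired-related homeobox factor of limb and craniofacial mesenchyme. Its probe outside the middle had log2 intensities of 10.88, 10.22 and 10.40 on the mock arrays. On the SOD3 arrays it had 12.14, 12.56 and 12.54. All SOD3 arrays were higher than all mock arrays, and the gap between the lines was wider than the spread within either. The difference of 1.91 (95% interval 1.36 to 2.46) had an adjusted p of 0.00244 by limma. The scanner intensities before any correction were 1900, 1100 and 1250 in mock cells and 5290, 6910 and 8590 in SOD3 cells, so the SOD3 arrays were also the higher ones in the raw signal. Around this spot the fitted surface was itself higher in the SOD3 arrays, by 0.62 relative to the median spot. With the surface taken off, the difference was 1.42 (95% interval 0.86 to 1.98, adjusted p = 0.0139 by limma), and the probe was still called. It was also called with each single array left out, at values from 1.77 to 2.10.

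The second Prrx1 probe, in the middle of the array, was much dimmer in mock cells, with log2 intensities of 8.55, 7.61 and 7.51. In SOD3 cells it had 10.46, 9.29 and 10.67. The lines did not overlap, but 1 of 3 mock arrays passed the background test, against 3 of 3 SOD3 arrays. The difference was 2.25 (95% interval 1.41 to 3.10, adjusted p = 0.00942 by limma). The surface at this place was higher by 1.69 in the SOD3 arrays. After position adjustment the difference was 0.62 (95% interval -0.02 to 1.25, adjusted p = 0.248 by limma), and the call was gone. It was also lost without mock replicate 2 (adjusted p = 0.0603 by limma) and without SOD3 replicate 3 (adjusted p = 0.0610). The result for Prrx1 therefore rests on the probe designed on transcript variant 2.

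Snai1 and Snai2 encode the zinc finger repressors Snail and Slug. Snai1 had log2 intensities of 9.90, 10.09 and 10.21 in mock cells and of 11.59, 11.65 and 10.13 in SOD3 cells. SOD3 replicates 1 and 2 were above every mock array, whereas SOD3 replicate 3 lay within the mock range. The difference was 1.05 (95% interval 0.25 to 1.85, adjusted p = 0.189 by limma) and was not called. Without SOD3 replicate 3 it was 1.55 and called (adjusted p = 0.0214 by limma), so a single array decided the call. The Snai1 spot lies outside the middle, where the surface differed by 0.04, and position adjustment gave 1.16 (95% interval 0.43 to 1.89, adjusted p = 0.0782 by limma).

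Snai2 had log2 intensities of 10.75, 10.86 and 10.91 in mock cells and of 11.30, 10.21 and 11.71 in SOD3 cells. The mock arrays were close together, and the SOD3 arrays lay on both sides of them. The SD was 0.08 in mock and 0.77 in SOD3 cells (n = 3 each). The difference was 0.23, and its 95% interval reached from -0.51 to 0.98, just short of a 2-fold increase. Without SOD3 replicate 3 the difference was -0.09. The SOD3 arrays of Snai1 and Snai2 did not share an order, since the lowest array was replicate 3 for Snai1 and replicate 2 for Snai2.

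Zeb1 and Zeb2 encode the zinc finger and homeobox factors that act beside Snail on junction genes. Zeb1, read by a probe on chromosome 18, had log2 intensities of 11.80, 11.63 and 11.75 in mock cells and of 11.53, 11.36 and 11.79 in SOD3 cells. The ranges overlapped. The difference was -0.17 (95% interval -0.66 to 0.32), and 0.06 after position adjustment. The interval holds changes under 2-fold in either direction.

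The bright Zeb2 probe, outside the middle, had log2 intensities of 10.30, 10.05 and 9.84 in mock cells and of 9.79, 9.79 and 10.41 in SOD3 cells. The lines overlapped, with SOD3 replicate 3 the highest of all 6 arrays. The difference was -0.07 (95% interval -0.63 to 0.49) and 0.17 after position adjustment. The second Zeb2 probe, 2676 bases away and in the middle of the array, was well above background on 2 of 3 mock and 0 of 3 SOD3 arrays. Its means were 8.20 in mock and 7.45 in SOD3 cells, and the lines overlapped (95% interval of the difference -1.5 to -0.01, adjusted p = 0.340 by limma). With SOD3 values raised to the lowest value well above background, the mean was 1.32-fold lower in SOD3 cells. This dim probe was lower in the SOD3 cells at a place where the surface was higher by 0.99. The bright and the dim probe were both designed on transcript variant 2.

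Twist1 and Twist2 encode basic helix-loop-helix factors that pair with E proteins. Twist1 had log2 intensities of 9.08, 8.68 and 8.07 in mock cells and of 9.25, 9.26 and 8.99 in SOD3 cells. The ranges met, with mock replicate 1 above SOD3 replicate 3. The difference was 0.56 (95% interval -0.05 to 1.17, adjusted p = 0.393 by limma). The spot lies in row 119, just above the middle, where the surface was higher by 0.70, and the position-adjusted difference was 0.13 (95% interval -0.36 to 0.62).

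Twist2, whose single spot lies in the middle, had log2 intensities of 11.97, 12.16 and 11.03 in mock cells and of 12.83, 12.70 and 12.58 in SOD3 cells. The lines did not overlap. The difference was 0.99 (95% interval 0.34 to 1.64, adjusted p = 0.119 by limma). The surface there was higher by 1.02, and after position adjustment 0.07 was left (95% interval -0.43 to 0.58, adjusted p = 0.887 by limma). Twist2 was called only when scaling to the 75th percentile replaced quantile normalization (1.16, adjusted p = 0.0357 by limma), a scaling that moved the median of all probes to -0.33.

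Tcf4 was read by 2 probes on chromosome 18 that were both designed on transcript variant 1. The bright one, outside the middle, had log2 intensities of 13.32, 12.97 and 13.41 in mock cells and of 11.90, 11.78 and 12.06 in SOD3 cells. Every SOD3 array was lower than every mock array. The difference was -1.32 (95% interval -1.82 to -0.82, adjusted p = 0.00994 by limma), which is a 2.49-fold lower level, and it was called with each single array left out. The spot lies in column 7 of 164, near the edge of the array, where the surface was lower in the SOD3 arrays by 0.49 relative to the median spot (-0.49). After position adjustment the difference was -0.70 (95% interval -1.22 to -0.19, adjusted p = 0.119 by limma), and with the processed signal, centered on the 75th percentile of each array, it was -0.46 (adjusted p = 0.266 by limma). In both the call was lost. The sign stayed negative in both, but under the processed signal the median of all probes was itself at -0.52.

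The second Tcf4 probe, in the middle, was well above background on 0 of 3 mock arrays and 1 of 3 SOD3 arrays. Its means were 7.20 in mock and 7.94 in SOD3 cells (adjusted p = 0.169 by limma). With mock values raised to the lowest value well above background, the ratio of the means was 1.03. After position adjustment this probe was lower in SOD3 cells, at -0.62. The opposite signs of the 2 Tcf4 probes before adjustment thus became the same sign after it, though neither was called.

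Foxc2 encodes a forkhead factor of mesenchyme and of lymphatic and arterial endothelium. It had log2 intensities of 9.46, 9.30 and 9.48 in mock cells and of 9.04, 8.89 and 8.46 in SOD3 cells. All SOD3 arrays were lower than all mock arrays. The difference was -0.62 (95% interval -1.13 to -0.11, adjusted p = 0.238 by limma) and was not called. The spot lies in column 8, next to the edge, where the surface was lower by 0.31 (-0.31), and after position adjustment -0.05 was left (95% interval -0.52 to 0.43). Foxc2 and the bright Tcf4 probe, the pair of probes that were lower without overlap, thus both sat at the same edge.

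**Figure D2:**
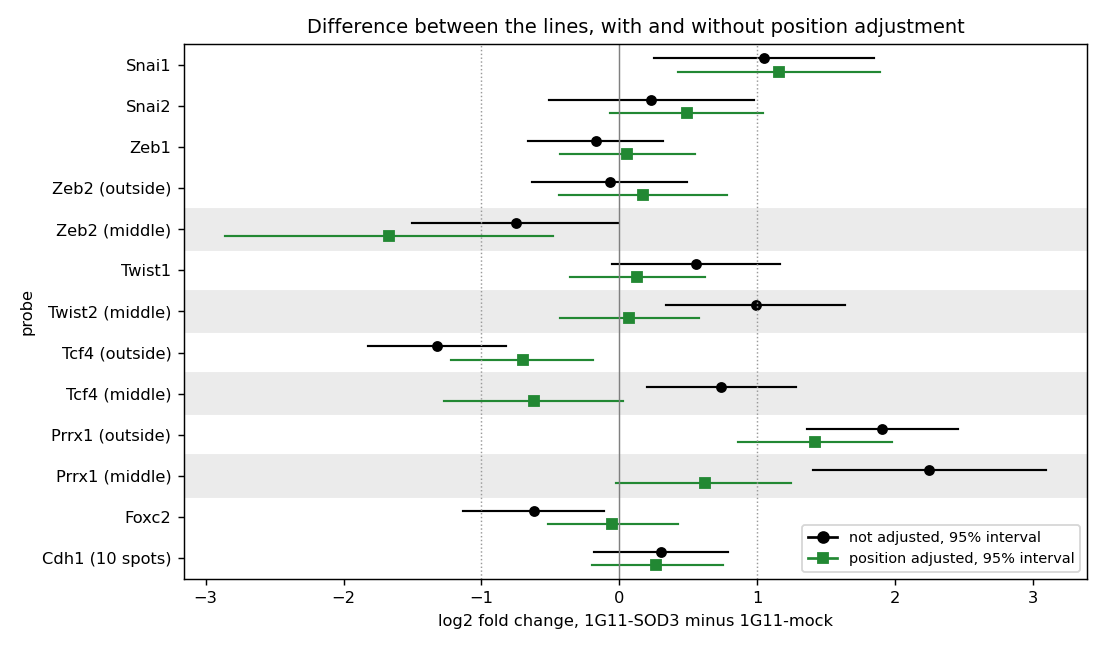
Difference between the lines in log2 units (horizontal axis, SOD3 minus mock) for the 13 probes (vertical axis), as normalized (black circles) and after position adjustment (green squares), with 95% intervals from limma. Dotted lines mark 2-fold and grey bands the probes in the middle. After adjustment the Prrx1 probe outside the middle stood at 1.42 and Snai1 at 1.16, while Twist2, Foxc2 and Zeb1 lay within 0.07 of 0.

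Cdh1, which Snail, Zeb and Twist factors repress, was near the limit of detection. Its probe was printed 10 times, 3 times in the middle and 7 times elsewhere. Of 30 mock spots 2 were well above background, and of 30 SOD3 spots 25 were. In array order 0, 2 and 0 copies were above background in mock cells and 7, 8 and 10 in SOD3 cells. Averaged over copies the log2 intensities were 7.75, 7.99 and 7.61 in mock and 8.13, 8.17 and 7.96 in SOD3 cells. Mock replicate 2 lay above SOD3 replicate 3, so the lines overlapped.

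The Cdh1 means were 7.78 ± 0.19 in mock and 8.09 ± 0.11 in SOD3 cells (SD, n = 3), and the difference was not called (adjusted p = 0.591 by limma). With mock values raised to the lowest value well above background, the ratio of the means was 1.13. The fitted difference was 0.30 (95% interval -0.18 to 0.79). Copies in the middle gave 0.18 to 0.57 and copies elsewhere 0.01 to 0.60, so the range of the 3 middle copies lay within that of the other 7. After position adjustment the difference was 0.27. Raw intensities of the 60 spots ran from 301 to 558 only. One copy on SOD3 replicate 2 was an outlier by the scanner's test and was left out. The share of all spots above background was also higher on the SOD3 arrays, as given above, and its part in the count of Cdh1 spots was not tested.

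**Figure D3:**
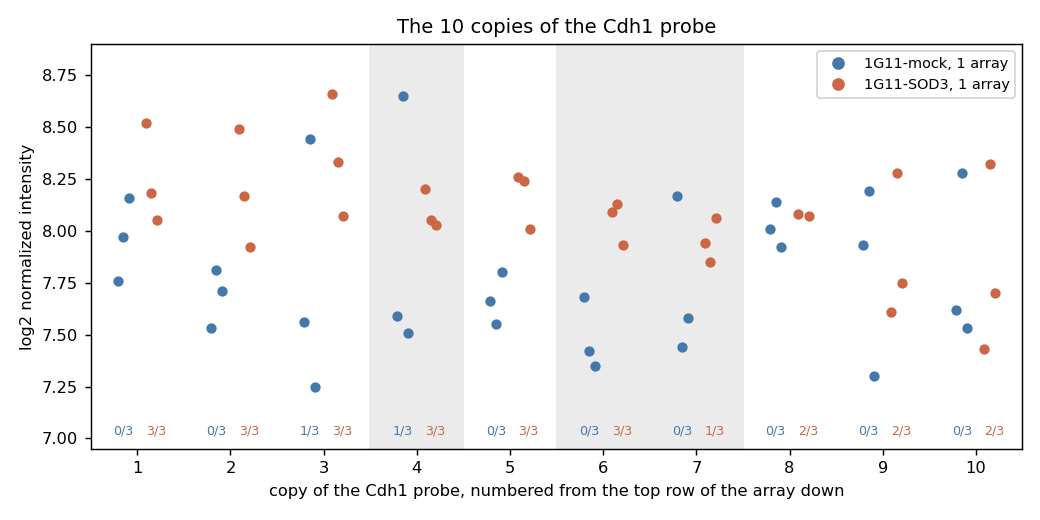
Normalized log2 intensity (vertical axis) of the 10 copies of the Cdh1 probe (horizontal axis, from the top row of the array down), with 1 point per array and grey bands for the 3 copies in the middle. The fractions give the arrays well above background. More SOD3 than mock spots passed the background test at each copy, although the values of the lines overlapped in most copies.

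The genes around the factors were described by 7 lists of 103 genes in all, each gene standing for its brightest probe. Of these genes 8 were called higher and 1 lower, where 2.13% of all genes were called higher and 1.27% lower. Their median difference was -0.02, against -0.04 for all genes. Of the 8, 6 belonged to the list of mesenchymal genes gained in the transition. With the replicate number as a block, 4 genes of the 103 were called lower in place of 1 (Bmp6, Sox9, Tjp1 and Vwf) and 10 were called higher in place of 8. In that fit Bmp6 was at -1.08 (adjusted p = 0.0274 by limma) and Sox9 at -1.12 (adjusted p = 0.016). The 2 gained higher calls were the endothelial genes Esam (1.22, adjusted p = 0.0473 by limma) and Flt1 (1.07, adjusted p = 0.0237), whose probes lie in the middle and which had position-adjusted differences of -0.41 and 0.18.

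Among the 6 partner E proteins and Id antagonists, which sequester E proteins away from Twist, 1 was called higher and the median difference was 0.15. Id2 was higher by 2.98 (SE 0.485, adjusted p = 0.00741 by limma). Its probe lies in the middle, and after position adjustment 1.29 was left (adjusted p = 0.0411). Without SOD3 replicate 3 its adjusted p was 0.0555. Id1 had a difference of 1.38 (adjusted p = 0.333) and Id3 one of 0.05 (adjusted p = 0.966), and neither was called. The Id1 probe lies in the middle, and its position-adjusted difference was 0.35 (adjusted p = 0.653). Without mock replicate 1, Id1 was called at 2.14 (adjusted p = 0.0423).

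Of 10 other transition factors 0 were called in the main fit, with a median of -0.04 and a range from -1.12 to 0.71. Sox9, the lowest (adjusted p = 0.0571 by limma), was at -1.01 after position adjustment. It was called lower with dim probes left out, with the block and without mock replicate 3. Prrx2, the close relative of Prrx1, had a difference of 0.69 (95% interval -0.05 to 1.43, adjusted p = 0.387 by limma) and Sox4 one of -0.23 (adjusted p = 0.808). Of 12 corepressors and stability regulators of the Snail family 0 were called, with a median of -0.14. Ctbp1, a corepressor that Zeb proteins recruit, had a difference of 1.14 (adjusted p = 0.210) and of 0.26 after position adjustment, and the histone deacetylase Hdac1 one of 0.12 (adjusted p = 0.860). Of 22 genes of TGF-β, BMP and Notch signaling, the pathways that induce the factors, 0 were called in the main fit. Their median was -0.01, and they ran from -1.08 to 0.98. Bmp6, the lowest (adjusted p = 0.0505 by limma), was at -0.54 after position adjustment. It was called lower with the deposited table, dim probes left out, the block and without mock replicate 1. Smad7, the highest, was called higher without SOD3 replicate 1. The ligands Bmp4 and Tgfb3 had differences of 0.26 (adjusted p = 0.759) and 0.50 (adjusted p = 0.304).

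Among 18 mesenchymal genes 6 were called higher and 0 lower, with a median of 0.69. Of all genes, 2.13% were called higher and 1.27% lower. The list was chosen with earlier results of these data known. Col1a1, a fibrillar collagen chain, had log2 intensities of 12.15, 11.31 and 10.50 in mock and of 14.43, 14.02 and 14.81 in SOD3 cells (difference 3.10, adjusted p = 0.00155 by limma). Smooth muscle actin, Acta2, had 9.90, 10.09 and 9.96 in mock and 13.48, 13.15 and 12.36 in SOD3 cells (difference 3.01, adjusted p = 0.000389). In both genes the lines were far apart on every array. Calponin, Cnn1, was well above background on 0 of 3 mock arrays and 3 of 3 SOD3 arrays, with means of 7.39 and 10.32 (at least 5.35-fold, adjusted p = 0.00319). Transgelin, Tagln, was higher by 1.46 (adjusted p = 0.0106). These 4 were called with each single array left out.

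Col3a1 (1.43, adjusted p = 0.0242 by limma) and Col1a2 (at least 1.55-fold, adjusted p = 0.0227) completed the 6, and they were named after their values were seen. Each lost its call when certain single arrays were left out, 3 of the 6 for Col3a1 and 4 for Col1a2. Col1a2 was also not called without background correction (0.80) and with 75th percentile scaling (0.91, adjusted p = 0.0986). All 6 genes were also called after position adjustment, where 1.37% of all genes were called higher and 2.73% lower. The other 12 genes of the list were not called. Among them vimentin, Vim, had a difference of 0.04 (95% interval -0.52 to 0.59).

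Of 17 endothelial genes 1 rose and 1 fell, with a median of 0.07. The von Willebrand factor gene, Vwf, fell by 1.65 on the log2 scale (adjusted p = 0.00345 by limma) and by 1.38 after position adjustment (adjusted p = 0.0307). Ecscr, an endothelial membrane protein gene with its probe in the middle, was higher by 3.01 (adjusted p = 0.0325), was no longer called after position adjustment (0.91, adjusted p = 0.234) and lost its call in 5 of the 6 fits that left out 1 array. A further 8 of the 17 were above background on no array. Among 18 epithelial genes that the factors are known to repress 0 were called and the median was -0.21. The 2 brightest, Krt19 and Tjp1, had differences of -0.51 (adjusted p = 0.488) and -1.02 (adjusted p = 0.100). Tjp1, the gene of the junction protein ZO-1, was called lower with the replicate number as a block (-1.02, adjusted p = 0.0437) and without SOD3 replicate 3 (-1.35, adjusted p = 0.0347).

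**Figure D4:**
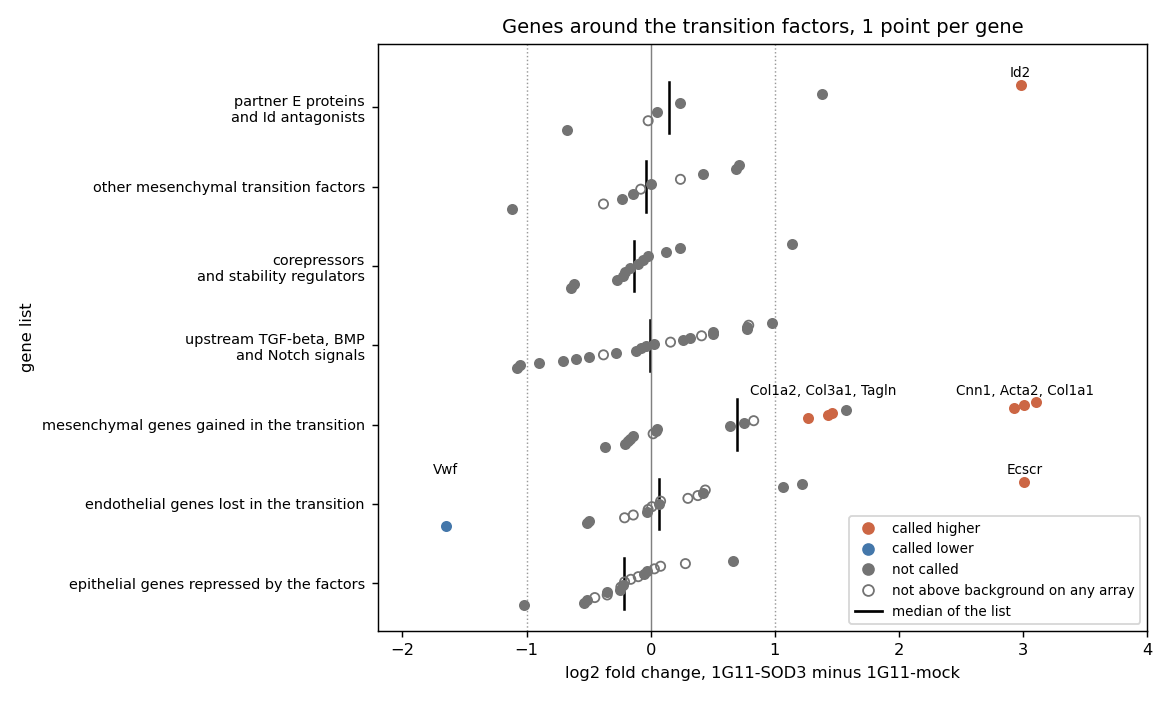
Difference between the lines in log2 units (horizontal axis, SOD3 minus mock) for the 103 genes of the 7 lists (vertical axis), 1 point per gene by its brightest probe, with genes of a list spread vertically for legibility. Filled red and blue points were called higher and lower, open points were above background on no array, black lines are list medians and dotted lines mark 2-fold. The 6 called mesenchymal genes lie between 1.27 and 3.10.

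The RNA came from whole cultures, in which fewer cells of a type and less RNA per cell cannot be told apart. Of 6 fibroblast markers 3 were called higher (Col1a1, Col1a2 and Lum) and 0 lower, where 2.13% of all genes were called higher and 1.27% lower. Col1a1 and Col1a2 are also among the called mesenchymal genes. The summed log2 intensity of the 6 markers ran from 57.97 to 59.70 in mock and from 63.41 to 68.55 in SOD3 cells. Dcn had 13.52, 13.58 and 17.07 in SOD3 cells, against 14.04 to 14.78 in mock cells. Thy1 had a difference of -0.37 and Pdgfra one of 0.52, and neither was called. All 6 markers were above background on at least 1 array, although Thy1 was so on 1 of 6. Of 6 mural cell markers 1, Pdgfrb, was called higher (2.39, adjusted p = 0.000369 by limma), with sums from 46.03 to 47.78 in mock and from 49.07 to 50.33 in SOD3 cells. Rgs5, Myh11 and Des were above background on no array. Of 7 endothelial markers 1, Vwf, was called lower, with sums from 58.68 to 60.69 in mock and from 56.24 to 58.00 in SOD3 cells, and Cdh5, Tek, Emcn and Erg were above background on no array. Kdr and Vwf were above background on all 6 arrays and Pecam1 on 2 of 3 per line.

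Of 6 epithelial markers 1, Krt14, was called higher (4.82, probe in the middle, and 2.12 after position adjustment), with sums from 54.57 to 55.67 in mock and from 58.60 to 59.57 in SOD3 cells. Without Krt14 the sums ran from 45.86 to 47.69 in mock and from 45.64 to 46.08 in SOD3 cells, and Epcam and Krt18 were above background on no array. Of 5 leukocyte markers 0 were called, with sums from 45.04 to 47.62 in mock and from 46.20 to 47.01 in SOD3 cells, and Ptprc, Cd68 and Lyz2 were above background on no array. The other 2, Itgam (mean of 14.19 in both lines) and Cd3e (10.53 in SOD3 cells, difference -0.46), were above background on all 6. The part of the fibroblast and mural cell genes in the Prrx1 difference was not tested.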

How the data were processed

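The 6 single-color arrays were of the Agilent SurePrint Mouse G3 type, 3 for each line. For each array the authors deposited scanner output of Feature Extraction 10.7.3.1, which holds mean and median pixel intensity, local background intensity and processed signal per spot, not normalized between arrays. A second deposited file, made by the authors with background correction and quantile normalization, gives log2 values with a median of 7.52 in each column. Recomputed from the scanner output, it differed by at most 0.005, and it served as an alternative.

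Mean pixel intensities were corrected with normexp (offset of 50) against the local background median, control and outlier spots were removed, log2 values were quantile normalized, and spots of 1 probe were averaged. A probe with several copies counted as above background on an array when at least 0.5 of its copies were. The lines were compared with limma 3.58.1 in R 4.3.3 (lmFit, eBayes) with Benjamini-Hochberg adjustment over all probes. Each gene was represented by its brightest probe (highest mean log2 value). Where a line was not above background on any array, the fold is a bound, taken against the higher of the probe's own value and the lowest value well above background on each array. It bounds the ratio of the means and holds no sampling error, so alone it does not establish a difference. The position adjustment took off a Gaussian-weighted surface (SD of 8 rows and 4 columns) of deviations from the mean of the 6 arrays, fitted on spots above background on at least 3 arrays without the probes printed 10 times. Its differences at a spot are given relative to the median spot.

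The deviations of same-numbered mock and SOD3 replicates correlated at 0.164, 0.103 and 0.156 over probes above background on every array. Pairs with different numbers had correlations from -0.167 to 0.055. The same-number values are small and are weak ground for pairing. The main fit did not pair the samples, so the differences, intervals and adjusted p-values are unpaired unless the block is named. An alternative fit took the replicate numbers of the labels as pairs, with the number as a block. It is given where it changed a call. The fit and the surface were tested on simulated data, with changes planted only in bright probes of small spread and a dim patch of even depth. Changes in dim or widely spread probes were not simulated.

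The members, the gene lists and the markers were chosen with earlier results of these data known. Named genes were all members, Sod3, Cdh5 and, from each list, at most the 4 called genes with the largest change or, with fewer than 2 called, its 2 brightest genes above background on all arrays. Col3a1, Col1a2, Vim, Bmp6, Smad7, Sox9, Esam, Flt1 and some marker genes were named after their values were seen. In the marker lists, 1 gene is not reported here. The alternatives were a normexp offset of 16, uncorrected intensities, the median of the pixels, the processed signal, scaling to the 75th percentile, cyclic loess, dim probes left out, outlier spots kept, the deposited table, position adjustment, the middle left out, the replicate block, each array left out and, for lists, averaging a gene's probes. No column that describes a sample was left unused. Figures were drawn with Python 3.11.15, pandas 2.3.3 and matplotlib 3.10.9.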

Additional observations from a re-analysis of the deposited data

How the results depend on the processing

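With 3 arrays a line, an uneven place effect and a line that coincided with the slide row, of the 13 member probes only the Prrx1 probe outside the middle was called under every alternative run (log2 differences from 1.42 to 2.10). The 2 member probes called higher became 1 with position adjustment and 1 with the middle left out, and 1 to 2 with single arrays left out. The 1 called lower became 0 with the processed signal and 0 with position adjustment, and was 1 with each single array left out. Under the processed signal the median of all probes moved to -0.52, and under 75th percentile scaling to -0.33. Of all probes, 1038 were called higher, against 658 without background correction, 629 with position adjustment, 298 with the middle left out and 477 to 1270 with single arrays left out. Of all probes, 586 were called lower, against 386 with an offset of 16, 9878 with the processed signal, 1080 with 75th percentile scaling, 1517 with position adjustment and 278 to 508 with single arrays left out. Of the 103 list genes, 8 were called higher, and 5 to 9 with single arrays left out. Those called lower numbered 1, against 10 with the processed signal, 2 with the deposited table, 3 with dim probes left out, 4 with the replicate block and 1 to 3 with single arrays left out. The block changed no member's call. Small differences changed sign. Cdh1 was at -0.04 with 75th percentile scaling, Zeb1 at 0.06 with position adjustment, and the Tcf4 probe in the middle at -0.62 with it. The bright Zeb2 probe was at 0.03 with cyclic loess, 0.17 with position adjustment and -0.28 to 0.05 with single arrays left out. Snai2 ran from -0.09 (without SOD3 replicate 3) to 0.66. Id3 was at -0.07 with the processed signal and at -0.29 to 0.45 with single arrays left out, and Sox4 at 0.06 with the processed signal and -0.60 to 0.01 with single arrays left out. Ctbp1 was called with 75th percentile scaling (1.32, adjusted p = 0.0369), Id1 likewise (1.55, adjusted p = 0.0479) and Prrx2 with the processed signal (1.33, adjusted p = 0.0495). The cause of these changes was not tested.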
